A study of Mus musculus with 24 samples.

Results

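Regulators of G protein signalling (RGS proteins) shorten the signals of G protein coupled receptors. The genes described here are 10 members of this family: Rgs2, Rgs3, Rgs4, Rgs7, Rgs8, Rgs10, Rgs13, Rgs16, Rgs17 and Rgs20. Their members on the array were the 23 probe sets annotated to 1 of these genes alone, of 45101 probe sets in all, and they gave values for 10 of 18194 genes. Rgs2 and Rgs3 had 4 probe sets each, Rgs4, Rgs16 and Rgs20 had 3, Rgs17 had 2, and Rgs7, Rgs8, Rgs10 and Rgs13 had 1. The list was selected on measured values of these same arrays, with the differences between the groups in view, although the values that decided each choice are not recorded. The members' levels, changes and threshold calls are therefore a description and support nothing beyond themselves.

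A heterotrimeric G protein is switched on when an activated receptor loads its alpha subunit with GTP, and it stays on until that GTP is hydrolysed. RGS proteins bind the active alpha subunit and speed hydrolysis, so the signal of the receptor ends sooner. In neurons they limit, among other things, the inhibition of transmitter release and the potassium currents that opioid, muscarinic and metabotropic glutamate receptors evoke, and several RGS genes are known to be induced by neuronal activity. The members fall into 4 subfamilies. Rgs2, Rgs3, Rgs4, Rgs8, Rgs13 and Rgs16 are of the R4 type, Rgs7 of the R7 type, Rgs17 and Rgs20 of the RZ type, and Rgs10 of the R12 type.

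The cells were primary cortical neurons of the mouse, taken at embryonic day 18 and kept in culture for 1 week. Cultures then received the solvent DMSO, the BET inhibitor IBET858 at 1 µM, brain-derived neurotrophic factor (BDNF) at 50 ng per ml, or BDNF together with IBET858, for 2 h or 12 h. BET proteins bind acetylated histones and help RNA polymerase II to transcribe, and BDNF activates neurons through the TrkB receptor. The 8 groups of 3 arrays each allow the change with BDNF, the change with the inhibitor and the dependence of one on the other to be read at both times. The labels number the replicates 1 to 3 without saying that they were separate cultures, so the errors below measure only the spread between these samples.

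Values are log2 intensities that had been centred on the median of the 24 arrays for each probe set. They show differences between arrays, while the level of a transcript, and with it any order of levels between genes, was lost. For the same reason the labelled cell type could not be checked through the presence of neuronal markers, nor could transcripts under background be set aside. In bulk cultures, fewer cells that express a gene and less of its RNA per cell cannot be told apart. A gene's value was the mean of its probe sets, changes are log2 differences between group means, followed after the ± sign by the standard error (SE) from a limma model with n = 3 arrays per group, and a gene was called when its p-value, adjusted over all 18194 genes, was under 0.05.

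Arrays differed from their group mean by a standard deviation of 0.0904 to 0.1507 over all probe sets, except for 2. The DMSO array at 2 h with replicate number 1 stood at 0.1813, and the IBET858 array at 12 h with number 3 at 0.1907. The first mattered most for the RGS genes. The 3 DMSO arrays at 2 h, in the order of their numbers, read -2.94, 0.0036 and 0.088 for Rgs13, -1.14, -0.10 and -0.0068 for Rgs10 and -1.04, 0.088 and 0.14 for Rgs2. Across the 10 genes the first of them lay a median of 0.895 from the mean of its 2 partners. The DMSO array at 12 h with number 1 deviated less, by a median of 0.352, with the lowest Rgs13 (-0.66), Rgs10 (-0.44) and Rgs2 (-0.64) and the highest Rgs17 (0.25) of its group. The called changes of the 10 genes that rest on DMSO at 2 h, and the medians over the 10, are therefore also given without its first array.

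The sequence just upstream of the start of transcription was read for 5 members, Rgs4 and Rgs16 for the largest rises, Rgs13 for the largest fall, and Rgs2 and Rgs17 because their change with the inhibitor at 12 h depended on BDNF. It was searched for known elements, since BDNF and neuronal activity are known to act on genes through DNA elements bound by CREB, AP-1, EGR and SRF. The RefSeq table (GRCm38.p6) held 12 windows for 9 of the 10 genes, all but Rgs20. Each window below is the 250 bases before the annotated start, 5′ to 3′ on the strand of the gene, and capitals mark matches to the motifs. Rgs4 lies at chr1:169747643-169747892 (minus strand), Rgs16 at chr1:153740103-153740352 (plus strand), Rgs2 at chr1:144004150-144004399 (minus strand), Rgs13 at chr1:144177373-144177622 (minus strand) and Rgs17 at chr10:5922401-5922650 (minus strand).
Rgs4: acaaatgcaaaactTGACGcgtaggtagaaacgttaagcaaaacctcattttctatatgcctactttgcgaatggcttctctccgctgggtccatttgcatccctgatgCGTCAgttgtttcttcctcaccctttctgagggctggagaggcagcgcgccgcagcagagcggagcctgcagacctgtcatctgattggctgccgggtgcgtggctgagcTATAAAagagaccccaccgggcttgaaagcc
Rgs16: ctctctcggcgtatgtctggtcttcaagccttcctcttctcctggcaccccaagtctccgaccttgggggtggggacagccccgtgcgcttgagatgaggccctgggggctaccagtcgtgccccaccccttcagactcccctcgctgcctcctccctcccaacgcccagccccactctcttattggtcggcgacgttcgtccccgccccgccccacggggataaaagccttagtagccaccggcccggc
Rgs2: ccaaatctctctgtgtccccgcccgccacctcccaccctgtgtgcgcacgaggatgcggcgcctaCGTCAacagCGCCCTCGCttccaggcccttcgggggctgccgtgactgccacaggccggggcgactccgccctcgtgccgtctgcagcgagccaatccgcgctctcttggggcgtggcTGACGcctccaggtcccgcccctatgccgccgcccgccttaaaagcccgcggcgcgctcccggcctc
Rgs13: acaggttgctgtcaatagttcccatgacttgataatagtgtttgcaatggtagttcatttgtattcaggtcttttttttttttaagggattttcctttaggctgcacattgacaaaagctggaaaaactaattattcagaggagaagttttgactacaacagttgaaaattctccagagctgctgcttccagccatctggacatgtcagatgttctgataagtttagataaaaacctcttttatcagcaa
Rgs17: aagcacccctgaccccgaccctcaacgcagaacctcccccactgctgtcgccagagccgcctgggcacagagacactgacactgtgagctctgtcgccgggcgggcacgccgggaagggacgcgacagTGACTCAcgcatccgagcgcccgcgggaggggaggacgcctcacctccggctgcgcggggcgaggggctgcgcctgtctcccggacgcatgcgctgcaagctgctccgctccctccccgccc

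The motifs searched on both strands were the full cyclic AMP response element TGACGTCA, its core CGTCA, the AP-1 site TGANTCA, the EGR site GCGNGGGCG and the CArG box of SRF, and TATAAA was searched on the strand of the gene. The full element holds the core within it on both strands. Rgs4 carried 2 cores and a TATAAA match. Rgs2 carried 2 cores and an EGR match, Rgs17 an AP-1 match, and Rgs16 and Rgs13 no match in these 250 bases. Of the windows not printed, 1 of the 3 of Rgs8 held a core, both of Rgs3 held TATAAA, and those of Rgs7 and Rgs10 held none. Of all 32851 windows in the table, 17.8% held a core, 1.55% the full element, 6.75% an AP-1 match, 4.70% an EGR match, 1.47% a CArG box and 7.59% TATAAA. The printed windows ran from 36.0% G and C for Rgs13 to 72.4% for both Rgs2 and Rgs17, with Rgs4 at 53.6%. The median over all windows was 52.4%. A match describes letters only, and binding of a factor was not measured.

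Several members lie side by side in the genome. By the order of coding genes in the RefSeq table, Rgs2 is followed on chromosome 1 by Rgs13, Rgs1 and Rgs21, Rgs8 by Rgs16, and Rgs5 by Rgs4. Rgs17 has the mu opioid receptor gene Oprm1 as the next coding gene but 1 on chromosome 10, and Rgs20 has the kappa opioid receptor gene Oprk1 in that place on chromosome 1. At 12 h with IBET858, the neighbours Rgs13 and Rgs2 stood at -2.10 ± 0.47 and 0.67 ± 0.19, and with cyclic loess at -0.11 (uncalled) and 0.54. Rgs8 and Rgs16 stood at -1.28 ± 0.17 and 0.11 ± 0.11, and with cyclic loess both fell, at -0.68 and -0.91.

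**Figure D1:**
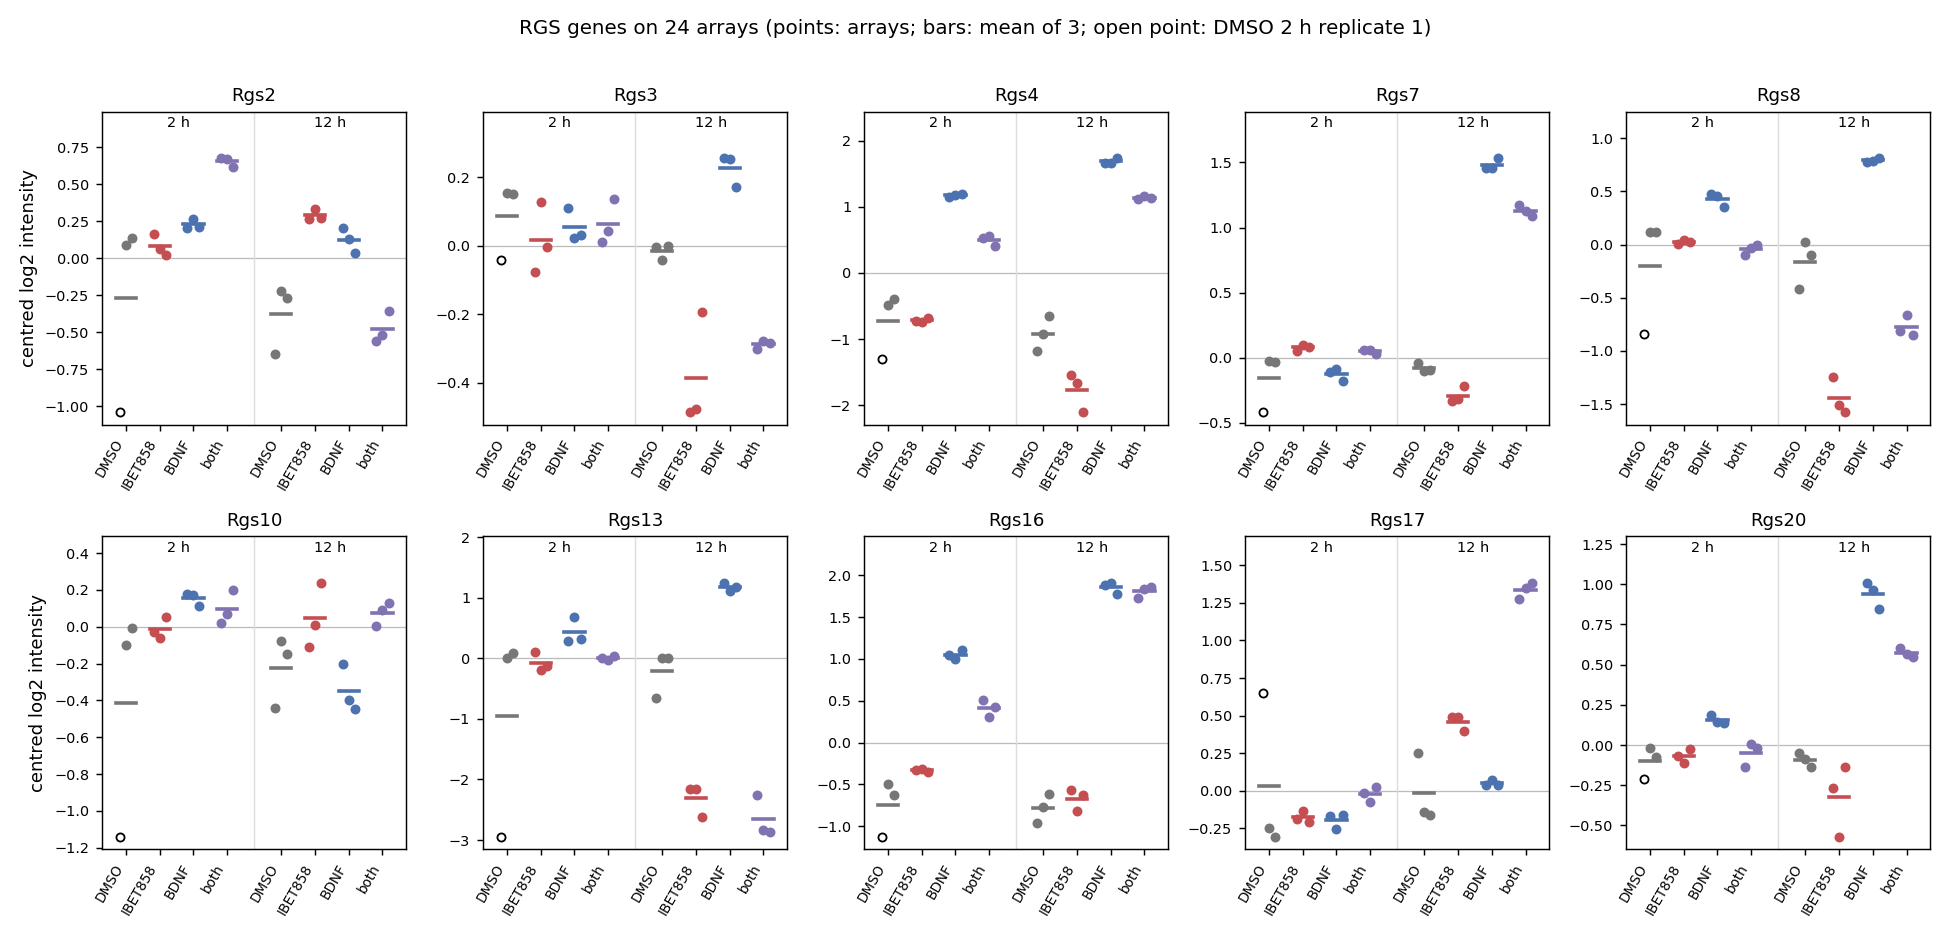
Centred log2 intensity (vertical axis, its scale set per gene) of the 10 RGS genes on each of the 24 arrays, with DMSO, IBET858, BDNF and both treatments at 2 h and 12 h along the horizontal axis, points for arrays and bars for the mean of 3. Rgs4 and Rgs16 stand high in the 4 groups with BDNF, and Rgs7 and Rgs20 in those with BDNF at 12 h. Rgs13 and Rgs8 stand low with IBET858 at 12 h. The open point is the first DMSO array at 2 h. It lies farthest from its partners for Rgs2, Rgs4, Rgs8, Rgs10, Rgs13 and Rgs17, and less far for Rgs16 and Rgs7.

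BDNF raised most of the 10 genes, with Rgs4 and Rgs16 in the lead at both times. At 2 h, 6 of the 10 genes were called, all 6 higher, where 9.79% of all genes were called higher and 18.1% lower. Those 6 were Rgs4 (1.90 ± 0.17), Rgs16 (1.80 ± 0.11), Rgs13 (1.38 ± 0.47), Rgs8 (0.63 ± 0.17), Rgs10 (0.57 ± 0.18) and Rgs20 (0.26 ± 0.080). At 12 h, 8 were called, all 8 higher (all genes 16.9% higher and 24.2% lower), led by Rgs16 (2.64 ± 0.11, 6.22-fold) and Rgs4 (2.61 ± 0.17, 6.09-fold). Rgs7 (1.56 ± 0.073), Rgs13 (1.39 ± 0.47), Rgs20 (1.03 ± 0.080), Rgs8 (0.96 ± 0.17), Rgs2 (0.50 ± 0.19) and Rgs3 (0.24 ± 0.072) followed, while Rgs17 and Rgs10 were not called. The median change of the 10 genes was 0.53 at 2 h and 1.00 at 12 h, beside -0.0043 and -0.012 over all genes, and at 2 h it was 0.21 without the first DMSO array (-0.0041 over all genes). Without the first DMSO array, 3 calls were left at 2 h, Rgs4 (1.61), Rgs16 (1.61) and Rgs8 (0.31), while Rgs13 stood at 0.38, Rgs10 at 0.21 and Rgs20 at 0.20. Without the first BDNF array, 3 were left as well, with Rgs13 at 1.45, Rgs10 at 0.56 and Rgs20 at 0.24 uncalled.

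With the inhibitor present, Rgs4 and Rgs16 again had the largest rises with BDNF. Both treatments together against IBET858 alone gave 3 called genes at 2 h, all 3 higher (all genes 6.44% higher and 14.7% lower): Rgs4 (1.21 ± 0.17), Rgs16 (0.74 ± 0.11) and Rgs2 (0.57 ± 0.19). At 12 h, 6 were higher and 1 lower (all genes 16.1% higher and 23.2% lower). The 6 were Rgs4 (2.90 ± 0.17), Rgs16 (2.48 ± 0.11), Rgs7 (1.42 ± 0.073), Rgs20 (0.90 ± 0.080), Rgs17 (0.88 ± 0.16) and Rgs8 (0.67 ± 0.17), and the lower one was Rgs2 (-0.77 ± 0.19). The medians were 0.091 and 0.77, beside -0.0045 and -0.065 over all genes. The Rgs2 call at 2 h was lost without any 1 of the 6 arrays (values from 0.54 to 0.61), and Rgs3 gained a call at 12 h (0.19) without the third IBET858 array.

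**Figure D2:**
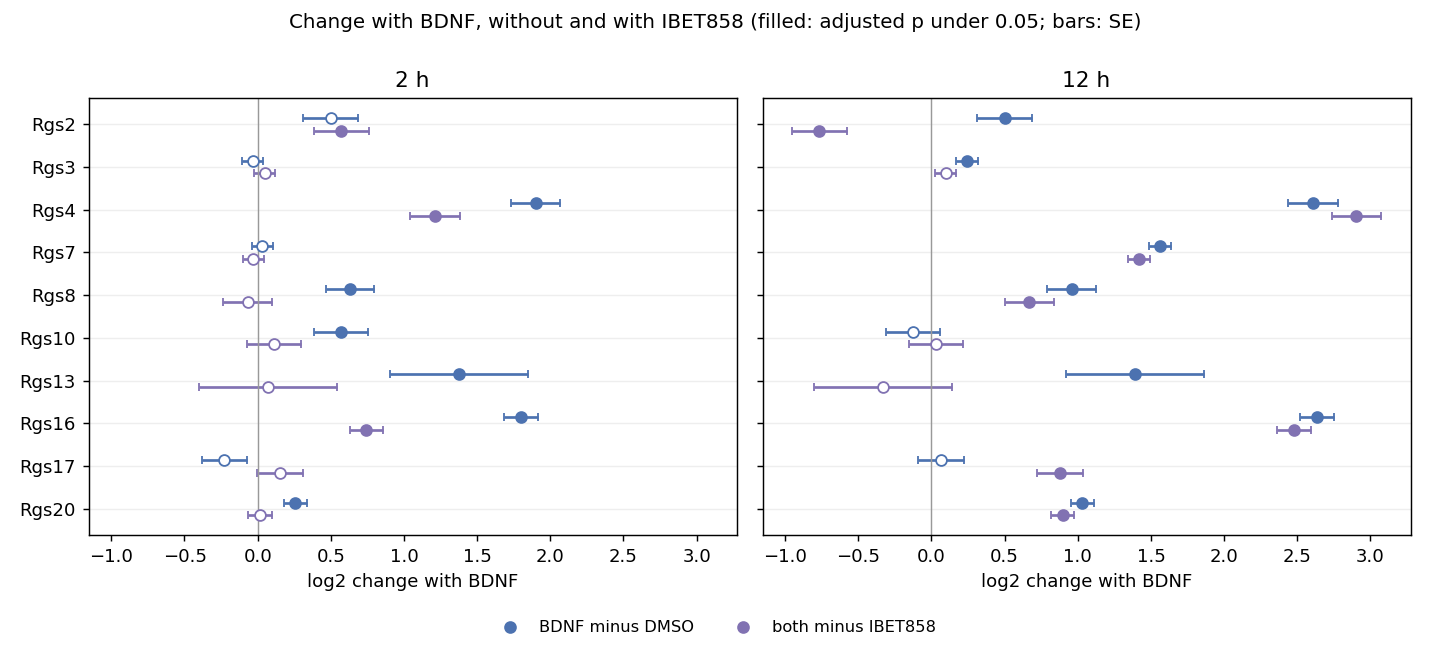
Change with BDNF on the log2 scale (horizontal axis) for each RGS gene at 2 h and 12 h, from BDNF minus DMSO and from both treatments minus IBET858, with bars of 1 SE of the limma model and filled points where the adjusted p was under 0.05. Rgs4 and Rgs16 rose in all 4 comparisons, Rgs7 and Rgs20 rose by 0.90 to 1.56 at 12 h with and without the inhibitor, and Rgs2 at 12 h lay at 0.50 without it and at -0.77 with it.

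IBET858 alone changed few members within 2 h and lowered most of them at 12 h. At 2 h, 2 were called, both higher (all genes 5.64% higher and 9.27% lower), Rgs16 (0.41 ± 0.11) and Rgs7 (0.24 ± 0.073). Neither call was left without the first DMSO array (Rgs16 0.23, Rgs7 0.11) or without the second IBET858 array (Rgs16 0.40, Rgs7 0.23). Rgs7 was also lost without the first (0.25) or the third (0.23) IBET858 array, and without the third DMSO array Rgs10 (0.61) and Rgs13 (1.40) gained calls. At 12 h, 6 fell and 2 rose (all genes 25.8% lower and 22.9% higher). Rgs13 (-2.10 ± 0.47), Rgs8 (-1.28 ± 0.17), Rgs4 (-0.85 ± 0.17), Rgs3 (-0.37 ± 0.072), Rgs20 (-0.23 ± 0.080) and Rgs7 (-0.21 ± 0.073) fell. Rgs2 (0.67 ± 0.19) and Rgs17 (0.48 ± 0.16) rose, although Rgs17 turned to -0.19 and lost its call when the arrays were scaled by cyclic loess. The median of the 10 genes was 0.23 at 2 h and -0.22 at 12 h, beside 0.023 and 0.041 over all genes. The median at 2 h changed sign, to -0.025, without the first DMSO array, and the 10 changes ran from -0.28 (Rgs4) to 0.23 (Rgs16).

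Added to BDNF, the inhibitor lowered Rgs4, Rgs16 and Rgs8 at 2 h and most members at 12 h. At 2 h, 3 were called, all 3 lower (all genes 12.2% higher and 14.9% lower): Rgs4 (-0.68 ± 0.17), Rgs16 (-0.64 ± 0.11) and Rgs8 (-0.47 ± 0.17). The Rgs8 call was lost without any 1 of the 6 arrays, at values from -0.51 to -0.45. At 12 h, 7 fell and 1 rose (all genes 25.6% lower and 21.1% higher). Rgs13 (-3.82 ± 0.47, 14.2-fold lower) and Rgs8 (-1.57 ± 0.17, 2.96-fold lower) fell furthest, followed by Rgs2 (-0.60 ± 0.19), Rgs4 (-0.55 ± 0.17), Rgs3 (-0.51 ± 0.072), Rgs20 (-0.37 ± 0.080) and Rgs7 (-0.36 ± 0.073). Rgs17 rose by 1.29 ± 0.16, 2.44-fold. The medians were -0.13 and -0.44, beside 0.046 and -0.0100 over all genes. These comparisons and the ones of BDNF against DMSO share the BDNF arrays.

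**Figure D3:**
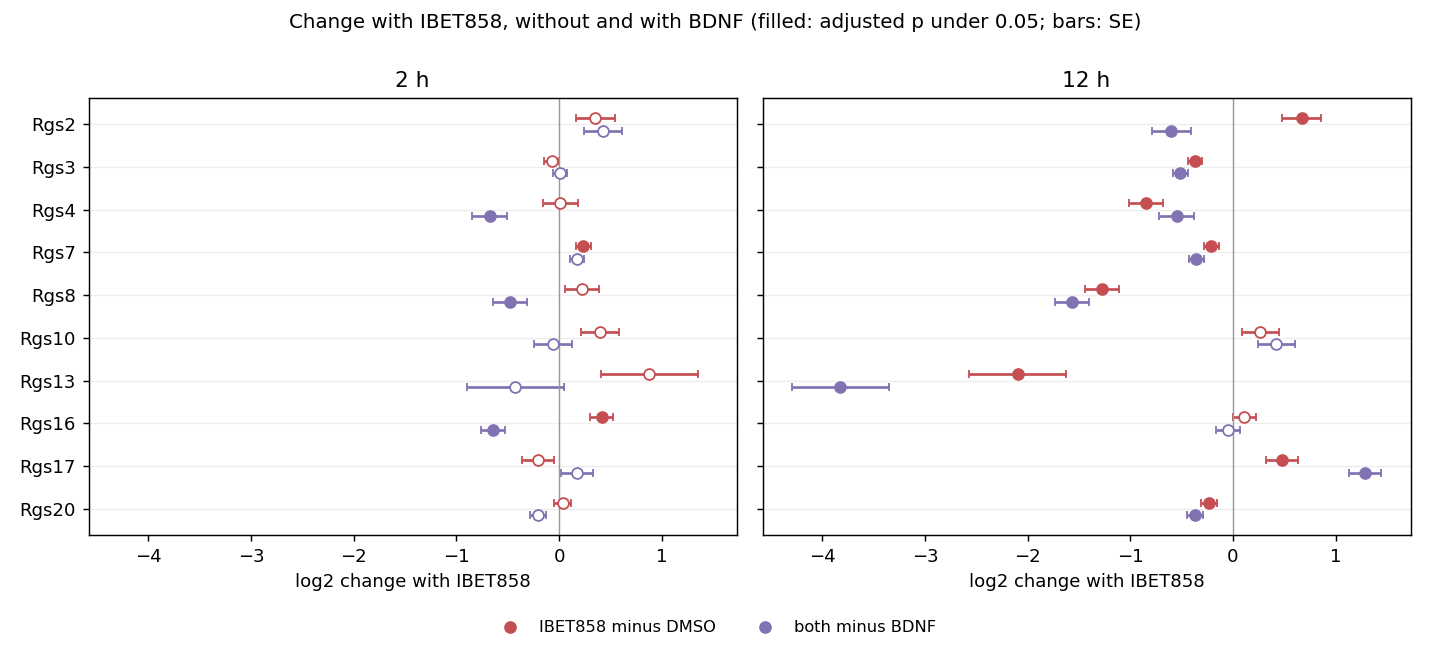
Change with IBET858 on the log2 scale (horizontal axis) for each RGS gene at 2 h and 12 h, from IBET858 minus DMSO and from both treatments minus BDNF, with bars of 1 SE of the limma model and filled points where the adjusted p was under 0.05. At 12 h Rgs13, Rgs8, Rgs4, Rgs3, Rgs7 and Rgs20 lie below 0 in both comparisons, Rgs17 lies above 0 in both and Rgs2 on opposite sides, while with cyclic loess Rgs17 without BDNF turned to -0.19 and Rgs16 to -0.91.

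Rgs4 acts on Gi and Gq alpha subunits and is abundant in cortex. On the DMSO arrays it read -1.30, -0.48 and -0.40 at 2 h and -1.18, -0.93 and -0.65 at 12 h. With BDNF it read 1.15, 1.18 and 1.19 at 2 h and 1.66, 1.66 and 1.74 at 12 h, far above every DMSO array. With both treatments the values were 0.53, 0.55 and 0.40 at 2 h and 1.12, 1.16 and 1.14 at 12 h, between those of DMSO and of BDNF alone, with no overlap at either time. IBET858 alone gave -0.73, -0.75 and -0.68 at 2 h, above the first DMSO array and below the other 2. The change there was 0.011 ± 0.17, and -0.28 without the first DMSO array, uncalled both times, while array weights gave -0.23 and a call. At 12 h IBET858 gave -1.54, -1.66 and -2.10, below all DMSO arrays. Its probe sets 1416286_at, 1416287_at and 1448285_at rose with BDNF by 1.57, 2.05 and 2.08 at 2 h (1.30, 1.77 and 1.77 without the first DMSO array) and by 1.96, 2.68 and 3.17 at 12 h, and correlated across the 24 arrays with r from 0.975 to 0.983.

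Rgs16, also a regulator of Gi and Gq signalling, was like Rgs4 highest with BDNF at 2 h and next with both treatments. At that time it read -1.12, -0.49 and -0.63 with DMSO, -0.33, -0.31 and -0.36 with IBET858, 1.04, 1.00 and 1.11 with BDNF and 0.51, 0.30 and 0.42 with both. The IBET858 arrays lay above the DMSO arrays and the arrays with both treatments below the BDNF arrays, so the inhibitor's change had opposite signs with and without BDNF. The rise without BDNF was uncalled without the first DMSO array (0.23) and with cyclic loess (0.30). The interaction of the 2 treatments at 2 h was -1.06 ± 0.16, and -0.87 without the first DMSO array. At 12 h the gene read -0.96, -0.77 and -0.62 with DMSO, -0.57, -0.82 and -0.62 with IBET858, 1.88, 1.91 and 1.77 with BDNF and 1.73, 1.84 and 1.86 with both. The groups with BDNF overlapped each other and lay clear of those without, and the change on adding the inhibitor to BDNF was -0.046 ± 0.11. That value depended on the scaling, since cyclic loess moved it to -1.52 and the change with IBET858 alone to -0.91, both called. Its 3 probe sets gave 2.83, 2.67 and 2.41 with BDNF at 12 h (r from 0.975 to 0.991).

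Rgs8, an R4 member known from cerebellar Purkinje cells, rose with BDNF and fell with the inhibitor. At 12 h it read -0.41, 0.022 and -0.10 with DMSO, 0.78, 0.79 and 0.82 with BDNF, -1.24, -1.51 and -1.57 with IBET858 and -0.81, -0.66 and -0.85 with both. The 4 groups did not overlap, and the arrays with both treatments lay below DMSO, closer to IBET858 alone than to BDNF. At 2 h the values were -0.84, 0.12 and 0.12 with DMSO, 0.48, 0.46 and 0.36 with BDNF, 0.0032, 0.041 and 0.028 with IBET858 and -0.10, -0.028 and -0.0032 with both. Only the BDNF arrays stood above all DMSO arrays at that time. Cyclic loess moved the fall with IBET858 at 12 h from -1.28 to -0.68 and that on top of BDNF from -1.57 to -0.88, all called.

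Rgs13, a short R4 member known best from B cells and mast cells, had the largest fall of the 10 genes. At 12 h its 1 probe set read -0.66, 0.0026 and 0.0044 with DMSO, -2.16, -2.16 and -2.62 with IBET858, 1.25, 1.11 and 1.17 with BDNF and -2.25, -2.83 and -2.86 with both. The BDNF arrays were highest and the 6 arrays with IBET858 lowest, whether BDNF was present or not. Against BDNF alone the fall was -3.82 ± 0.47 (-2.08 with cyclic loess), and against DMSO it was -2.10 ± 0.47, which cyclic loess took to -0.11 with no call. The rise with BDNF at 12 h (1.39 ± 0.47) lost its call without the first DMSO array of that time (1.17) or the first BDNF array (1.36). At 2 h the DMSO arrays read -2.94, 0.0036 and 0.088 and the BDNF arrays 0.28, 0.68 and 0.32. All BDNF arrays were above all DMSO arrays. The difference of 1.38 became 0.38 without the first DMSO array, and the call was also lost without any 1 BDNF array, at values from 1.25 to 1.45.

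Markers of B cells and mast cells, which are known to express Rgs13, were read beside it. Of 11 measured, 2 were called with IBET858 at 12 h, both higher, Cd79a (0.31 ± 0.11) and Ms4a1 (0.21 ± 0.078). With BDNF at 12 h, 1 rose (Kit, 0.42 ± 0.11), and on adding the inhibitor to BDNF 1 fell (Kit, -0.52 ± 0.11). Over all genes, 22.9% were called higher with IBET858, 16.9% higher with BDNF and 25.6% lower on adding the inhibitor. The mean of the list ranged over arrays from -0.10 to -0.048 with DMSO at 12 h, from -0.024 to 0.17 with IBET858, from -0.047 to 0.0052 with BDNF and from -0.065 to -0.0086 with both. The medians were 0.13 with IBET858, 0.049 with BDNF and -0.0029 on adding the inhibitor. Centred values cannot show which of these markers were at background, and the part of such cells in the Rgs13 signal was not tested.

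Rgs2, which acts mainly on Gq alpha subunits and is a known early response gene, had 4 probe sets in 2 patterns. Probe sets 1419247_at, 1419248_at and 1447830_s_at correlated with each other at r from 0.975 to 0.993 over the 24 arrays, and with 1443250_at at 0.331 to 0.459. The 3 alike rose with BDNF, by 0.71 ± 0.14, 0.50 ± 0.11 and 0.91 ± 0.16 at 2 h and by 0.66 ± 0.14, 0.42 ± 0.11 and 0.72 ± 0.16 at 12 h. At 2 h the rises were 0.43, 0.30 and 0.61 without the first DMSO array, all called. For 1443250_at the changes with BDNF were -0.12 ± 0.36 and 0.20 ± 0.36, neither called, and without the first DMSO array the change at 2 h was -0.88 and called. This probe set rose with the inhibitor at 2 h. On DMSO arrays it read -1.67, 0.55 and 0.64, with IBET858 1.31, 1.26 and 1.20, with BDNF -0.37, -0.23 and -0.26 and with both 1.85, 2.11 and 1.87. The 6 arrays with IBET858 lay above the other 6, by 1.42 ± 0.36 against DMSO (0.66 without its first array, still called) and by 2.23 ± 0.36 against BDNF. The 3 other probe sets stood at 0.040, -0.057 and 0.014 with IBET858 at 2 h, and at -0.24, -0.25 and -0.29 without the first DMSO array, none of them called. Which part of the Rgs2 transcript each probe set reads was not analysed here.

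At 12 h the 4 probe sets of Rgs2 shared 1 feature, an inhibitor effect that turned with BDNF. The gene read -0.64, -0.22 and -0.27 with DMSO, 0.27, 0.33 and 0.27 with IBET858, 0.20, 0.13 and 0.035 with BDNF and -0.56, -0.52 and -0.36 with both. The IBET858 and BDNF arrays were all above the DMSO arrays, while those with both treatments overlapped DMSO. The inhibitor's change was 0.67 ± 0.19 without BDNF and -0.60 ± 0.19 with it, and the difference of the 2, the interaction, was -1.27 ± 0.27. It was -1.21, -0.77, -1.36 and -1.72 for the single probe sets, all called. The BDNF call of the gene at 12 h was lost without the first DMSO array of that time (0.37) and without the first (0.46), second (0.50) or the third (0.55) BDNF array. At 2 h the gene's change with BDNF was 0.50 ± 0.19, not called. It was 0.12 and uncalled without the first DMSO array, and called without the second (0.68) or the third (0.70) DMSO array.

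Rgs3, an R4 member with long and short protein forms, also held 2 patterns. Probe sets 1425296_a_at and 1425701_a_at (r = 0.935 with each other) fell with IBET858 at 12 h, at -0.79 ± 0.093 and -0.89 ± 0.10, and on top of BDNF, at -1.05 ± 0.093 and -1.08 ± 0.10. Both rose with BDNF at 12 h, by 0.35 ± 0.093 and 0.56 ± 0.10. For 1425701_a_at the arrays at 12 h read -0.049, 0.16 and 0.037 with DMSO, -0.79, -0.85 and -0.89 with IBET858, 0.63, 0.70 and 0.50 with BDNF and -0.41, -0.47 and -0.53 with both. Its BDNF arrays were the highest and its 6 arrays with IBET858 the lowest, with no overlap. Probe sets 1449516_a_at and 1454026_a_at moved by 0.19 ± 0.10 and 0.017 ± 0.14 with IBET858 at 12 h, neither called, and correlated with the first pair at r from -0.223 to 0.059. At 2 h with BDNF the inhibitor lowered the first pair (-0.26 and -0.35) and raised 1449516_a_at (0.40). The gene means thus average unlike signals, and the gene-level change there was 0.0091 ± 0.072.

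**Figure D4:**
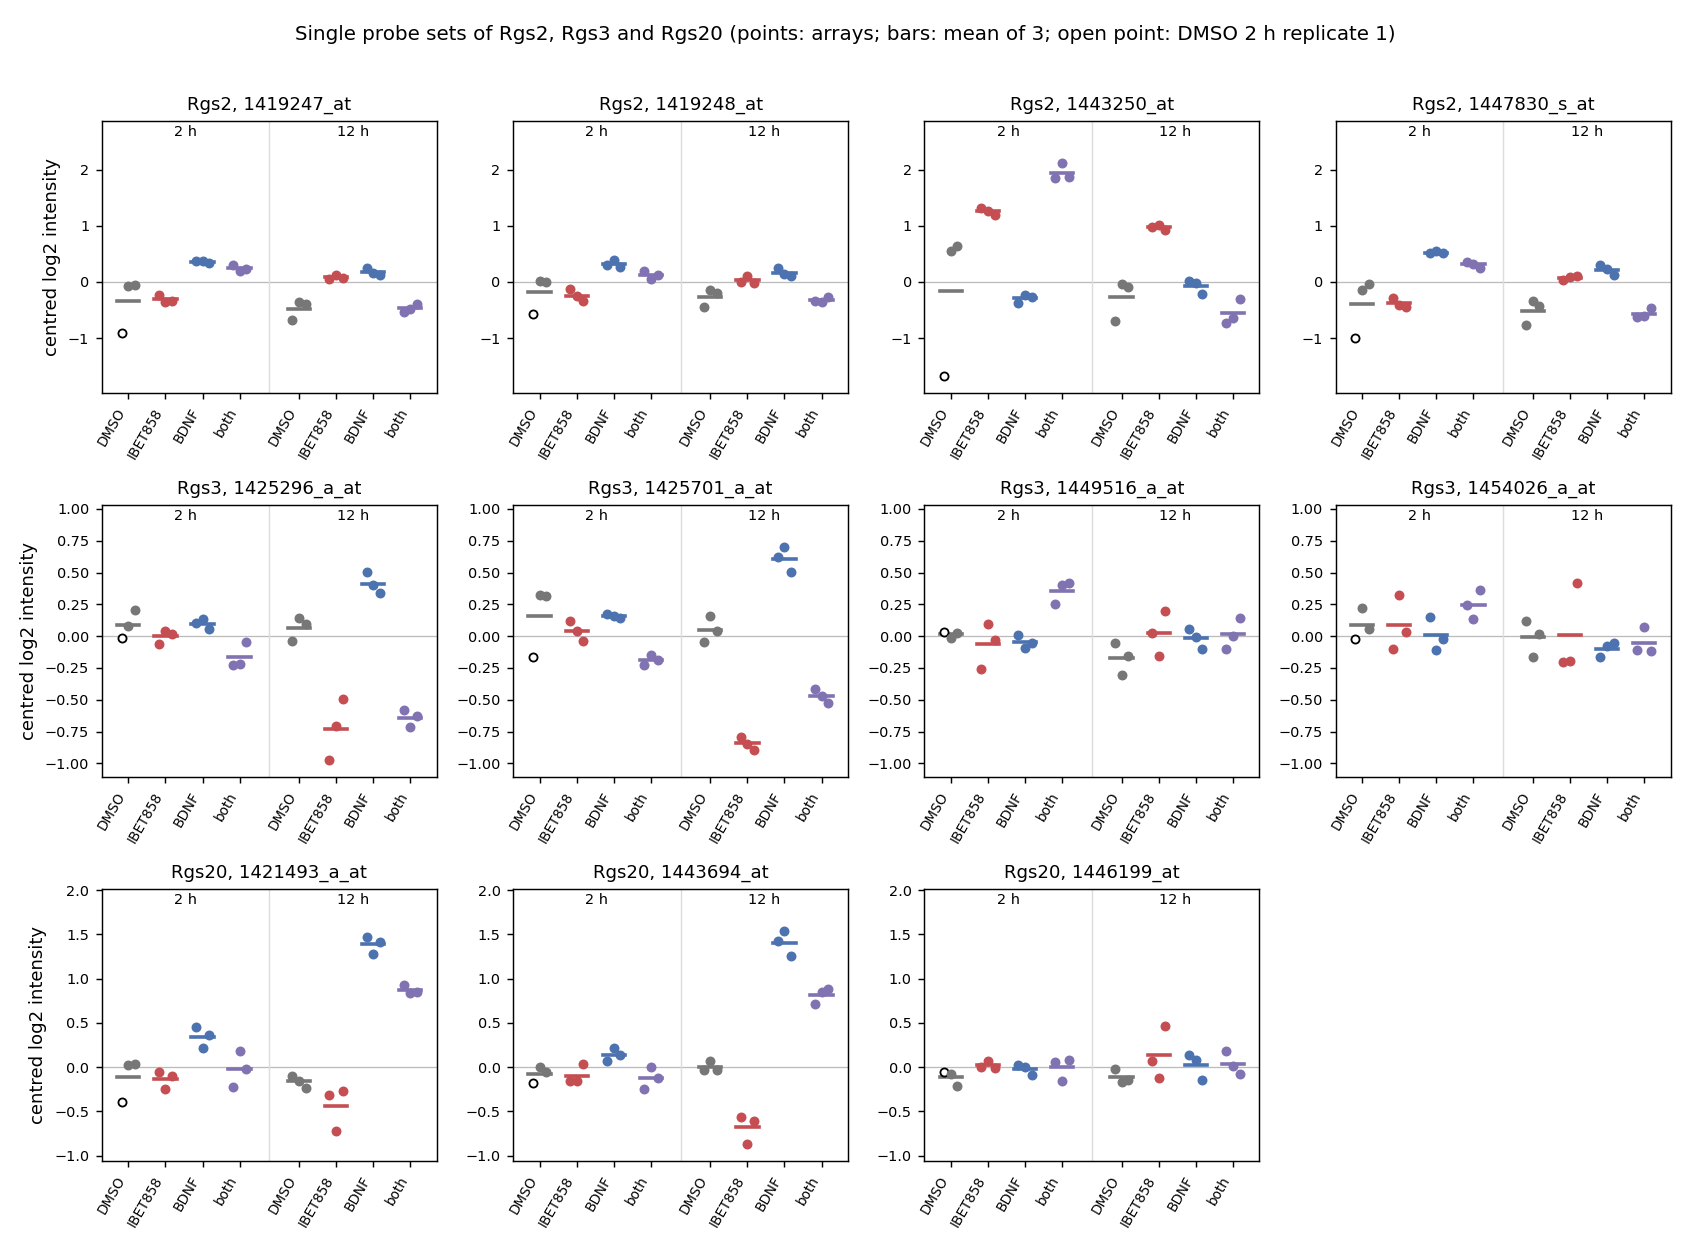
Centred log2 intensity (vertical axis, 1 scale per gene) of the 4 probe sets of Rgs2, the 4 of Rgs3 and the 3 of Rgs20 on each array, by treatment and time, with points for arrays and bars for the mean of 3. Probe set 1443250_at of Rgs2 is high in the groups with IBET858 at 2 h, the first 2 panels of Rgs3 fall with IBET858 at 12 h while the other 2 do not, and 1446199_at of Rgs20 lacks the rise with BDNF at 12 h that the other 2 have.

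Rgs7, which pairs with the G beta 5 protein and a membrane anchor and turns off Gi and Go signals in neurons, rose late with BDNF. At 2 h its 1 probe set read -0.42, -0.028 and -0.030 with DMSO and -0.11, -0.085 and -0.18 with BDNF, overlapping, and the change was 0.032 ± 0.073 (-0.10 without the first DMSO array), uncalled both times. At 12 h it read -0.041, -0.10 and -0.10 with DMSO, 1.46, 1.46 and 1.53 with BDNF, -0.33, -0.32 and -0.22 with IBET858 and 1.17, 1.12 and 1.09 with both. Both groups with BDNF lay above all others, those with the inhibitor somewhat below those without. The rise was 1.56 ± 0.073 (2.95-fold), and the BDNF effect was larger at 12 h than at 2 h by 1.53 ± 0.10. The change of Rgs7 with IBET858 at 12 h was -0.21 ± 0.073, a call that was lost without the first DMSO array of that time (-0.19), the first IBET858 array (-0.19) or the second (-0.20). Cyclic loess made the falls with the inhibitor larger, -1.10 alone and -1.61 on top of BDNF.

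Of the 5 genes listed for the partners of R7 proteins, 3 rose and 1 fell when the inhibitor was added to BDNF at 12 h (median 0.31), where 21.1% of all genes were called higher and 25.6% lower. The anchor Rgs7bp rose by 0.43 ± 0.060, as did the receptor Gpr158 (0.92 ± 0.11) and the anchor Rgs9bp (0.31 ± 0.095). Gnb5, which encodes G beta 5, fell there (-0.28 ± 0.059) and with IBET858 alone (-0.44 ± 0.059). With BDNF at 12 h, 1 of the 5 was called, Rgs9bp at -0.36 ± 0.095 (all genes 16.9% higher and 24.2% lower).

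Rgs20, an RZ member that favours the Gz alpha subunit, was also highest with BDNF at 12 h. At 12 h the gene read -0.050, -0.087 and -0.14 with DMSO, 1.01, 0.97 and 0.84 with BDNF, -0.27, -0.57 and -0.14 with IBET858 and 0.61, 0.57 and 0.55 with both. The BDNF arrays were highest, followed without overlap by those with both treatments, and the other 2 groups overlapped. Probe sets 1421493_a_at and 1443694_at rose with BDNF by 1.55 ± 0.12 and 1.41 ± 0.091, while 1446199_at moved by 0.14 ± 0.11, uncalled (r of 0.085 and -0.013 with them). The fall with IBET858 alone (-0.23 ± 0.080) lost its call without the first DMSO array of 12 h (-0.21) or the second IBET858 array (-0.11). Cyclic loess gave -0.72 for it and -1.01 for the fall on top of BDNF.

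Rgs17, the other RZ member, was highest with both treatments. At 12 h it read 0.25, -0.14 and -0.16 with DMSO, 0.49, 0.49 and 0.40 with IBET858, 0.040, 0.075 and 0.036 with BDNF and 1.28, 1.35 and 1.38 with both. The arrays with both treatments lay above all 21 others, and those with IBET858 alone above DMSO and BDNF at that time. BDNF changed the gene by 0.067 ± 0.16 without the inhibitor (-0.085 with cyclic loess) and by 0.88 ± 0.16 with it, and the interaction was 0.81 ± 0.22. The call of the rise with IBET858 alone was lost without the second (0.42) or the third (0.41) DMSO array of 12 h, and cyclic loess took the interaction to 0.57 and the rise on top of BDNF to 0.38, neither called. At 2 h the gene ranged from -0.26 to 0.027 over the 9 treated arrays, and the first DMSO array, at 0.65, stood above every one of them. Its 2 probe sets gave 1.24 and 1.33 on adding the inhibitor to BDNF at 12 h (r = 0.955).

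Rgs10, a short R12 member known from microglia and neurons, had the narrowest range of the 10 genes over the 21 arrays outside DMSO at 2 h, where its 1 probe set read from -0.45 to 0.24. At 12 h it read -0.44, -0.077 and -0.15 with DMSO, -0.20, -0.40 and -0.45 with BDNF, -0.11, 0.0072 and 0.24 with IBET858 and 0.0068, 0.089 and 0.13 with both, and the BDNF arrays lay below all arrays with both treatments. That difference was 0.42 ± 0.18, not called with all arrays and 0.42 and called when the 2 arrays that stood apart were left out of the fit. With cyclic loess it was 0.67 and called. The rise with BDNF at 2 h (0.57 ± 0.18) lost its call without the first DMSO array (0.21) and without the first (0.56) or second (0.56) BDNF array. Microglia markers were read beside it. Of 11 measured, 1 rose with BDNF at 2 h (C1qc, 0.28 ± 0.088, but 0.25 and uncalled without the first DMSO array), where 9.79% of all genes were called higher. At 12 h Rgs10 was called neither with IBET858 (0.27 ± 0.18, but 0.48 and called with cyclic loess) nor with BDNF (-0.13 ± 0.18). There 5 markers fell with IBET858 (median -0.29), among them C1qc (-0.44 ± 0.088) and Cx3cr1 (-0.43 ± 0.084), and 4 with BDNF (median -0.094). Over all genes 25.8% and 24.2% were called lower in these 2 comparisons. The mean of that list ranged over arrays from -0.069 to -0.062 with DMSO at 12 h, from -0.32 to -0.23 with IBET858, from -0.25 to -0.14 with BDNF and from -0.37 to -0.30 with both. At 2 h it ranged from 0.027 to 0.12 with DMSO and from 0.18 to 0.26 with BDNF. The part of microglia in the Rgs10 values was not tested.

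The interaction of BDNF and IBET858 was called for 1 gene at 2 h, Rgs16, lower (all genes 3.11% higher and 5.29% lower). At 12 h it was called for 1 higher, Rgs17, and 1 lower, Rgs2 (all genes 8.94% higher and 7.24% lower). With cyclic loess Rgs17 lost this call (0.57), while Rgs7 (-0.51) and Rgs16 (-0.60) gained one. Medians were -0.35 at 2 h (-0.14 without the first DMSO array) and -0.14 at 12 h. Rgs13 at 12 h had a large but uncalled value (-1.73 ± 0.67), which was called without the 2 arrays that stood apart (-1.88). At 2 h, Rgs2 gained a call (0.46) without the first DMSO array. That value is a mean over unlike probe sets. From BDNF to both treatments, 1443250_at went from -0.29 to 1.94. The others were lower with both, 1419247_at at 0.24 after 0.36, 1419248_at at 0.13 after 0.31 and 1447830_s_at at 0.31 after 0.52. The interaction also takes in the inhibitor's change without BDNF. Without the first DMSO array, that change was 0.66 for 1443250_at and -0.24, -0.25 and -0.29 for the others, in the same order. The others thus moved down both with and without BDNF, and their falls on top of BDNF do not give the sign of their interaction. Rgs4 and Rgs8 stood at -0.69 ± 0.24 and -0.70 ± 0.24, uncalled. They were at -0.40 and -0.38 without the first DMSO array, also uncalled, and were called without the second (-0.81 and -0.86) or the third (-0.85 and -0.86).

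Between 2 h and 12 h, limma called 0 of the 10 genes in the DMSO cultures, and 0 had an unadjusted p under 0.05, where 7.54% of all genes were called in either direction. Without the first DMSO array at 2 h, 2 were called, Rgs2 (-0.49) and Rgs4 (-0.48). The IBET858 effect was lower at 12 h than at 2 h for 5 genes and higher for 1 (all genes 17.4% lower and 15.8% higher). These were Rgs13 (-2.98 ± 0.67), Rgs8 (-1.50 ± 0.24), Rgs4 (-0.86 ± 0.24), Rgs7 (-0.45 ± 0.10) and Rgs3 (-0.30 ± 0.10), and, higher, Rgs17 (0.68 ± 0.22). Without the first DMSO array they stood at -1.98, -1.18, -0.57, -0.32, -0.23 (uncalled) and 0.38, and Rgs2 gained a call at 0.70. Rgs3 was also lost without 5 other single arrays (-0.29 to -0.24), Rgs17 without the second (0.62) or the third (0.61) DMSO array at 12 h. Calls were gained by Rgs16 (-0.43) without the second DMSO array at 2 h and by Rgs20 (-0.36) without the third IBET858 array at 12 h. With cyclic loess, Rgs13 (-1.03), Rgs3 (-0.22) and Rgs17 (0.091) lost their calls for the IBET858 effect over time. Rgs16 (-1.22) and Rgs20 (-0.69) gained calls there.

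The BDNF effect was higher at 12 h than at 2 h for all 4 genes called (all genes 12.9% higher and 11.9% lower): Rgs7 (1.53 ± 0.10), Rgs16 (0.84 ± 0.16), Rgs20 (0.77 ± 0.11) and Rgs4 (0.71 ± 0.24). Without the first DMSO array at 2 h these were 1.66, 1.03, 0.83 and 0.99, and Rgs13 (1.01), Rgs8 (0.65), Rgs2 (0.38) and Rgs3 (0.34) were called too. The Rgs4 call was lost without any of 10 other single arrays (0.54 to 0.72). Rgs10, at -0.70 ± 0.26, was at -0.33 and uncalled without the first DMSO array at 2 h, and gained a call without the second (-0.85) or the third (-0.90) of those arrays, or without the first DMSO array at 12 h (-0.81). The medians of the 10 genes were -0.012 for the time in DMSO, -0.30 for the IBET858 effect and 0.31 for the BDNF effect. They were -0.20, -0.22 and 0.74 without the first DMSO array at 2 h.

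The members did not share 1 order of groups. BDNF at 12 h was the highest group for Rgs3, Rgs4, Rgs7, Rgs8, Rgs13, Rgs16 and Rgs20, though for Rgs16 its arrays overlapped those with both treatments. Rgs17 was highest with both treatments at 12 h, Rgs2 with both at 2 h, and Rgs10 with BDNF at 2 h, where its arrays overlapped the next group. The place of Rgs2 came from probe set 1443250_at (1.94), while 1419247_at, 1419248_at and 1447830_s_at were highest with BDNF at 2 h (0.36, 0.31 and 0.52). Probe sets 1449516_a_at and 1454026_a_at of Rgs3 were highest with both at 2 h (0.36 and 0.25). For Rgs20, 1446199_at was highest with IBET858 at 12 h (0.14). IBET858 at 12 h was the lowest group for Rgs3, Rgs4, Rgs7, Rgs8 and Rgs20, though not for those single probe sets of Rgs3 and Rgs20. For Rgs4 and Rgs8 its arrays lay clear of the next group, and for the other 3 they overlapped it.

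Across the 24 arrays, as a description over points that share 8 groups of arrays and their scaling, Rgs4 and Rgs16 correlated at r = 0.936, Rgs7 and Rgs20 at 0.940, and Rgs8 and Rgs13 at 0.920. Rgs13 and Rgs17 ran opposite, at -0.825. Likeness to other genes was taken as the Pearson correlation over the 8 group means, among 16329 genes with a name other than a clone or model number. How high the best of so many genes would lie for any gene was not worked out. The DMSO mean at 2 h includes its first array. Rgs16 was most like Serp1 (0.995), Nrn1 (0.991), which encodes the activity-regulated growth factor neuritin, and Eprs (0.988), and over the single arrays Nrn1 reached 0.988. Rgs4 was most like Ss18l2 (0.972), Zwint (0.969) and Eif5a (0.962). Rgs7 was most like the receptor phosphatase gene Ptprg (0.987), the kainate receptor gene Grik3 (0.985) and Atxn1 (0.982). For Rgs20 they were Rcan2 (0.995), an inhibitor of calcineurin, Nars (0.991) and Prkg2 (0.988).

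Rgs8 was most like Klhdc10 (0.99), Usp24 (0.987) and Pam (0.987), and Rgs13 most like Psmb6 (0.981), Mpi (0.979) and Mthfd1l (0.978). For Rgs17 they were Gli3 (0.99), Ifngr1 (0.983) and Plcl1 (0.983), and for Rgs3 Pabpc4 (0.994), Snrpe (0.988) and Ankrd29 (0.985). The genes nearest to Rgs2 and Rgs10 were alike over group means and less so over arrays. Ckm had 0.976 and 0.562 with Rgs2, Cryga 0.971 and 0.358, and Rasl12 0.969 and 0.582. Adh7 had 0.949 and 0.651 with Rgs10, Prss39 0.939 and 0.311, and Tmprss15 0.931 and 0.595.

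Of the 9 other RGS genes that could be measured, BDNF at 12 h raised 1, Rgs5 (0.33 ± 0.10), and lowered 1, Rgs11 (-0.91 ± 0.17), with a median of 0.015. At 2 h it lowered 1, Rgs19 (-0.68 ± 0.10, and -0.66 without the first DMSO array). With IBET858 at 12 h all 3 called genes fell, the R7 members Rgs11 (-0.99 ± 0.17) and Rgs6 (-0.65 ± 0.16) and the R12 member Rgs12 (-0.43 ± 0.069) (median -0.19). Added to BDNF it lowered 4, Rgs11 (-0.51 ± 0.17), Rgs5 (-0.44 ± 0.10), Rgs12 (-0.40 ± 0.069) and Rgs19 (-0.27 ± 0.10). Over all genes, BDNF lowered 18.1% at 2 h, and at 12 h it raised 16.9% and lowered 24.2%. IBET858 at 12 h lowered 25.8% alone and 25.6% when added to BDNF. The named list was selected and these 9 were left over, so the contrast between the sets is no finding.

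The receptors upstream of RGS proteins were read from a list of 25 measured neuronal receptors that couple to Gi or Go and of 15 that couple to Gq. BDNF at 12 h raised 9 of the 25 and lowered 5 (median 0.075), with the somatostatin receptors Sstr2 (3.03 ± 0.092) and Sstr3 (1.37 ± 0.080) high and the glutamate receptor Grm2 (-1.72 ± 0.24) low. IBET858 at 12 h raised 1 and lowered 13 of them (median -0.35), among them the nociceptin receptor Oprl1 (-1.36 ± 0.083), Grm8 (-1.25 ± 0.10) and the serotonin receptor Htr1b (-0.93 ± 0.070). Added to BDNF it lowered 14, all those called (median -0.26), led by Sstr2 (-2.31 ± 0.092), the cannabinoid receptor Cnr1 (-1.50 ± 0.12) and Sstr3 (-1.43 ± 0.080). Of the Gq receptors, BDNF at 12 h raised 6 of 15, with the histamine receptor Hrh1 (2.14 ± 0.11) and the tachykinin receptor Tacr3 (2.00 ± 0.067) high, and lowered 3, with the neurotensin receptor Ntsr1 (-1.68 ± 0.18) low. IBET858 lowered 8 and raised 1 of them at 12 h (median -0.28), led by Ntsr1 (-1.19 ± 0.18), Grm5 (-1.12 ± 0.093) and the orexin receptor Hcrtr2 (-0.66 ± 0.10). The shares called over all genes at 12 h were 16.9% higher and 24.2% lower with BDNF, 22.9% and 25.8% with IBET858, and 21.1% and 25.6% on adding it to BDNF.

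The G proteins themselves were read at 12 h by the same lists. Over all genes, 16.9% were called higher and 24.2% lower with BDNF, and 22.9% and 25.8% with IBET858. Of 5 alpha subunits of the Gi, Go and Gz type, IBET858 raised 2, Gnai2 (0.78 ± 0.068) and Gnai1 (0.49 ± 0.054), and BDNF raised 2 and lowered 2, with Gnaz at -0.56 ± 0.050, Gnai1 at 0.49 ± 0.054 and Gnai2 at -0.39 ± 0.068. Of 4 of the Gq type, IBET858 raised Gna11 (0.28 ± 0.044) and lowered Gnaq (-0.20 ± 0.071). Of 4 of the remaining types, IBET858 raised 2 and lowered 2, and BDNF raised 1, Gna13 (0.42 ± 0.079), and lowered 1, Gnal (-0.33 ± 0.056). Of 13 beta and gamma subunits, IBET858 lowered 7 and raised 1 (median -0.20), with Gnb4 at -1.58 ± 0.081, and BDNF lowered 5 and raised 2 (median -0.11), with Gng7 at -0.71 ± 0.064. Of 15 effectors, IBET858 lowered 7 and raised 2 (median -0.14), led by the adenylyl cyclase Adcy8 (-1.52 ± 0.17) and the potassium channel Kcnj3 (-0.81 ± 0.073), and BDNF lowered 9 and raised 3 (median -0.22), with the channel Kcnj9 at -0.81 ± 0.057 and the cyclase Adcy6 at -0.80 ± 0.073. The 6 receptor kinases and arrestins, which end signalling at the receptor, were all called in both comparisons. IBET858 raised 3 and lowered 3, with the kinase Grk5 at 1.69 ± 0.17, and BDNF raised 1 and lowered 5, with Grk5 at -1.46 ± 0.17. Added to BDNF, the inhibitor changed Grk5 by 3.13 ± 0.17. Of 11 other modulators of the G protein cycle, 4 were called with IBET858, all higher, with Gpsm2, an inhibitor of nucleotide exchange, at 1.69 ± 0.062 and the sorting nexin Snx14, which has an RGS domain, at 0.91 ± 0.081. BDNF lowered 4 of them and raised 1, with Snx14 at -0.66 ± 0.081.

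Neuronal markers did not move as 1 block at 12 h. Beside the marker counts here, 16.9% of all genes were called higher and 24.2% lower with BDNF, and 22.9% and 25.8% with IBET858. Of 11 measured, BDNF raised 5 and lowered 5, with the neurofilament genes Nefm (3.94 ± 0.10) and Nefl (2.22 ± 0.11) high and Rbfox3 (-1.01 ± 0.051) low, and IBET858 raised 3 and lowered 6, with Elavl4 at -1.61 ± 0.081. Of 10 astrocyte markers, 3 were called with BDNF, all lower, and IBET858 lowered 4 and raised 1, Sox9 (0.84 ± 0.14). Of 9 oligodendrocyte markers both treatments lowered 2 and raised 1, and of 10 vascular markers 2 were called with IBET858, Pecam1 (0.33 ± 0.12) and Pdgfrb (-0.28 ± 0.10). How far a shift in cell types takes part in the RGS changes was not tested.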

How the data were processed

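RNA was hybridised to 24 Affymetrix mouse arrays. The deposited table holds log2 values that the authors made with RMA, per the submitters' processing notes; its version is not given in the sources used here. RMA brings arrays to 1 distribution, which hides any change in total mRNA. In the deposited table the median over the 24 arrays was 0 (within 1e-06) for 45101 of 45101 probe sets.

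The platform's annotation table gave 1 gene symbol to 34958 probe sets and several to 932, and did not list 9211. Entrez IDs updated 34754 of the 34958 through RefSeq, and 204 did not match. A gene's value was the mean of the probe sets naming it alone. Differences were fitted with limma 3.58.1 in R 4.3.3, as 8 group means with 16 residual degrees of freedom and eBayes, over 13 two-sided contrasts with Benjamini-Hochberg adjustment over 18194 genes, and once more over single probe sets. Alternatives changed the probe-set summary, the scaling, the weights, the block, the groups fitted and the arrays included, and a probe-set fit without the first DMSO array at 2 h was added after seeing the data. The script was tested on simulated data. By the rule for named genes, all 10 genes could be named in every contrast, and from other lists at most the 3 called genes with the largest change, some of which are left out. The text went beyond that rule on adding the inhibitor to BDNF at 12 h. There all called genes among the other RGS genes and the R7 partners are named. The members and lists were chosen with earlier results of these data known. Promoter windows came from RefSeq. Protein sequences were not used here.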

Additional observations from a re-analysis of the deposited data

Results flagged for a closer look

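For 13 results the effect of 1 treatment differed between times or with the other treatment, by a test of the difference itself as a contrast in limma (adjusted p from 9.88e-10 to 0.0341, n = 3 arrays per group). The genes had been selected on these arrays, so the tests describe them. The IBET858 effect was lower at 12 h than at 2 h for Rgs13 (-2.98), Rgs8 (-1.50), Rgs4 (-0.86), Rgs7 (-0.45) and Rgs3 (-0.30) and higher for Rgs17 (0.68). The BDNF effect was higher at 12 h for Rgs7 (1.53), Rgs16 (0.84), Rgs20 (0.77) and Rgs4 (0.71). The inhibitor's effect depended on BDNF for Rgs16 at 2 h (-1.06) and for Rgs2 (-1.27) and Rgs17 (0.81) at 12 h. The values for times rest on DMSO at 2 h, whose first array lay apart, and those without it are given with each comparison. With cyclic loess, the IBET858 effects over time of Rgs13 (-1.03), Rgs3 (-0.22) and Rgs17 (0.091) were not called. The Rgs17 interaction at 12 h (0.57) was uncalled there too.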

How the results depend on the processing

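Of the 58 called results of the 10 genes, 58 were kept with array medians subtracted, with robust eBayes and with the replicate block, 57 with array weights, 56 with the median of a gene's probe sets, 55 without probe sets marked _s_, _x_ or _a_, 54 without the 2 arrays that stood apart, 48 with cyclic loess, 48 in fits of the compared groups alone, and 43 whichever single array was left out. Cyclic loess draws its curves against values from which centring had removed the level, and with it Rgs16 with IBET858 at 12 h turned to -0.91 and Rgs17 to -0.19; with array weights Rgs4 with IBET858 at 2 h turned to -0.23. The cause was not tested. Single probe sets of Rgs3 ran against the gene mean, 1449516_a_at and 1454026_a_at at 0.19 and 0.017 with IBET858 at 12 h, at 0.028 and 0.046 on top of BDNF and at 0.27 and 0.018 for the IBET858 effect over time, 1454026_a_at at -0.089 with BDNF at 12 h, and 1425296_a_at and 1425701_a_at at -0.26 and -0.35 on top of BDNF at 2 h. For Rgs20, 1446199_at was at 0.25 with IBET858 at 12 h, at 0.013 on top of BDNF and at -0.10 for BDNF under the inhibitor. Without the first DMSO array at 2 h, a fit added after seeing the data, Rgs17 probe set 1450693_at with BDNF at 2 h turned from -0.026 to 0.28.

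Counts of called genes moved as follows, and the cause was not tested. With IBET858 at 2 h the count of 2 became 0 with cyclic loess, in the fit of the compared groups alone and without both arrays that stood apart, and 0 to 4 with 1 array left out. With BDNF at 2 h the count of 6 became 3 in the fit of the compared groups and 3 to 7 with 1 array left out. On adding the inhibitor to BDNF at 2 h, 3 became 6 with array weights, 8 in the fit of the compared groups, 7 without both arrays and 6 with each probe set tested alone. The interaction at 2 h went from 1 to 4 with array weights, 2 without both arrays, 2 with single probe sets and 1 to 3 with 1 array left out. DMSO over time went from 0 to 4 with array weights, 2 without both arrays and 0 to 2 with 1 array left out. The IBET858 effect over time went from 6 to 3 in the fit of the compared groups. The BDNF effect over time went from 4 to 7 with array weights, 9 without both arrays and 3 to 8 with 1 array left out.

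Residuals of same-numbered arrays of different groups correlated at -0.20 to 0.51 (median 0.0029, 84 pairs, 10 of them above 0.1). For arrays with other numbers the range was -0.44 to 0.34 (median -0.00063, 168 pairs, 17 above 0.1). The medians showed no pairing by number across all groups, but pairing between some groups was not excluded. With the replicate block 3 further results were called, Rgs2 with BDNF at 2 h (0.50), Rgs10 on adding the inhibitor to BDNF at 12 h (0.42) and the BDNF effect over time of Rgs10 (-0.70), and no call was lost. Scaling moved the median over all genes by less than 0.1 in each contrast. The number of arrays limits the precision, and signal over background is unknown.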
